A study of Mus musculus with 48 samples.

Results

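The 10 genes described here encode fibronectin (Fn1), the 3 chains of an early embryonic laminin (Lama1, Lamb1, Lamc1), 2 chains of collagen IV (Col4a1, Col4a2), the collagen-binding glycoprotein Sparc, and 3 integrin subunits that can bind such matrix (Itga5, Itgav, Itgb1). They were chosen by name, as genes of the matrix and its receptors, and are 10 of the 22745 Ensembl genes in the table. The deposited table holds identifiers only, so each symbol comes from the list that chose the genes. Their rows are ENSMUSG00000026193 (Fn1), ENSMUSG00000032796 (Lama1), ENSMUSG00000002900 (Lamb1), ENSMUSG00000026478 (Lamc1), ENSMUSG00000031502 (Col4a1), ENSMUSG00000031503 (Col4a2), ENSMUSG00000018593 (Sparc), ENSMUSG00000000555 (Itga5), ENSMUSG00000027087 (Itgav) and ENSMUSG00000025809 (Itgb1). In the RefSeq annotation of GRCm38.p6, Fn1 and Lamc1 lie on chromosome 1, Itgav on 2, Col4a1, Col4a2 and Itgb1 on 8, Sparc on 11, Lamb1 on 12, Itga5 on 15 and Lama1 on 17, so none lies on a sex chromosome.

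Expression was measured on exon arrays in mouse embryonic stem cells with a pair of X chromosomes (XX, line Pgk12.1, 18 arrays at 16 times), with a single X chromosome (XO, also Pgk12.1, 19 arrays at 17 times), or with an X and a Y chromosome (XY, line E14, 10 arrays at 9 times). All 3 lines were first grown in serum-free medium with LIF and inhibitors of Gsk3 and Mek1, and then seeded at 0 h on fibronectin-coated wells with Activin A and basic Fgf, which moves naive stem cells towards epiblast stem cells. Coat and medium changed together, so their effects cannot be told apart, and neither can sex chromosomes and parental line where XY is compared. The labels do not say how many clones each line stands for, or whether replicates A and B, which exist at 0 h in all 3 lines and at 36 h in XX and XO, were separate cultures, which limits every p-value here to array-to-array spread, possibly in part technical. Every other time has 1 array. A whole-culture array cannot tell fewer cells of a type from less RNA per cell. The labelled cell type was not checked against marker genes here, because 0 of the 49997 genes in the gene table used are paired with an Ensembl identifier.

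Fibronectin is a secreted glycoprotein that cells assemble into fibrils and bind through integrins, above all the pair made by the Itga5 and Itgb1 products. Laminin trimers of an alpha, a beta and a gamma chain and the collagen IV network are the core of basement membranes, the thin sheets that line epithelia, including the epiblast. A laminin trimer needs a chain of each kind, and in the early mouse embryo the Lama1, Lamb1 and Lamc1 products form one such trimer.

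Values are log2 RMA levels, in which 1 unit is a doubling. Array medians lay between 6.80 and 7.10. Genes are not ranked by level against each other, because probes differ in brightness. Tests of both kinds were run over all 22745 genes with limma, with p-values adjusted by Benjamini-Hochberg and a threshold of 0.05. The 10 arrays with replicates gave comparisons at 0 and 36 h, and a smooth curve per line (natural cubic spline, 4 degrees of freedom) gave the courses over 47 arrays. The narrowest interquartile ranges belonged to the XO arrays at 60, 52, 12 and 56 h and the XY array at 32 h, and calls of these genes that are lost or gained without these 5 arrays are marked.

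The matrix genes did not move as 1 block. Over the course, Fn1, Lama1, Lamc1 and Sparc fell and Lamb1 rose in XX, XO and XY cells, while neither collagen IV gene passed in any line. In all, 6 of 10 genes passed in XX cells (limma F test, against 34.1% of all genes), 8 of 10 in XO cells (53.9%) and 8 of 10 in XY cells (50.2%). The median fitted change from 0 to 84 h of the 10 genes was -0.37 for XX, -0.20 for XO and -0.24 for XY, beside 0.03, 0.12 and 0.02 over all genes. Centring arrays on their medians took the XO value for all genes from 0.12 to -0.12. It shifts every gene by the same amount, so the 10 genes moved down with it and their distance from all genes was unchanged. Without the 5 narrow arrays the same numbers of these genes passed.

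The laminin chains split. Lama1, the alpha chain gene, had the largest change of the 10 at 36 h in XX and XO cells. In XX cells it stood at 9.66 and 9.64 at 0 h, 8.53 at 6 h, 7.37 at 12 h and 7.06 at 24 h, reached its lowest value of 5.75 at 60 h, and stood at 6.47 at 84 h. In XO cells it stood at 9.25 and 9.25 at 0 h, 7.88 at 6 h, 6.91 at 12 h, 6.35 at 24 h, 5.67 at 40 h, its lowest, and 7.38 at 84 h. In XY cells it stood at 10.31 and 9.98 at 0 h, 8.60 at 8 h, 7.10 at 24 h, 6.06 at 48 h and 5.98 at 84 h, its lowest. Most of the fall thus lay within the first day, and no array after 0 h overlapped the 0 h arrays of its line. The fitted change over the first 24 h was -2.84 for XX, -3.01 for XO and -3.14 for XY (SE 0.16, 0.15 and 0.17, limma adjusted p at most 5.21e-16). Lama1 lay below the array median in 31 of 47 arrays, so its changes may be understated.

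The later values of Lama1 differed between the lines, with a partial climb up to 84 h in XX and XO cells. In XY cells Lama1 stood at 6.06 at 48 h, 6.28 at 60 h and 6.34 at 72 h. Its lower XY value of 5.98 at 84 h rests on 1 array. At 84 h it stood at 6.47 in XX cells, above a lowest value of 5.75, at 7.38 in XO cells, above a lowest value of 5.67, and at its lowest in XY cells. The test of unequal courses passed for XX against XO (limma F test, adjusted p = 4.51e-07) and for XO against XY (adjusted p = 2.11e-07). The late values of XO cells form an unbroken climb from 6.18 at 60 h over 6.45 at 66 h and 6.84 at 72 h to 7.38 at 84 h. Those of XX cells climbed too, by less, from 5.75 at 60 h over 5.89 at 66 h and 5.98 at 72 h to 6.47 at 84 h. Both rest on 1 array at each time.

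Lamb1, the beta chain gene, changed against Lama1 from 0 to 84 h, though both were higher at 84 h than at 60 h in XX and XO cells. In XX cells it stood at 6.93 and 7.02 at 0 h, 7.69 at 6 h, 7.39 at 12 h, 7.97 at 24 h, 8.30 at 48 h and 9.43 at 84 h. In XO cells it stood at 6.73 and 6.62 at 0 h, 7.85 at 6 h, 6.83 at 12 h, 7.70 at 24 h, 9.11 at 48 h and 9.74 at 84 h. The 6 h array was above the 12 h array in both lines, most clearly in XO cells, where the 6 h value was not reached again until 28 h. In XY cells Lamb1 began higher, at 8.41 and 8.33, and stood at 8.95 at 8 h, 8.35 at 24 h, 7.97 at 32 h, 9.59 at 48 h and 9.85 at 84 h. The XY array at 32 h is among the narrow ones. Fitted changes from 0 to 84 h were 2.35 (SE 0.29, limma adjusted p = 1.46e-09) in XX, 2.91 (SE 0.29, adjusted p = 3.64e-14) in XO and 1.27 (SE 0.30, adjusted p = 3.38e-07) in XY cells. Without the XY array at 84 h, where the curve is then extrapolated, the XY value was 0.51 (adjusted p = 3.07e-06).

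Lamc1, the gamma chain gene, fell by less. It stood at 10.38 at 84 h, against 11.31 and 11.33 at 0 h, in XX cells, at 9.78, against 10.96 and 11.05, in XO cells, and at 10.17, against 11.45 and 11.45, in XY cells. The 84 h array was below both 0 h arrays in each line. Its lowest value in XO cells, 9.18, was in the narrow array at 52 h. The fitted change was -0.82 (SE 0.22, limma adjusted p = 6.77e-04) in XX, -0.86 (SE 0.22, adjusted p = 5.44e-10) in XO and -1.24 (SE 0.23, adjusted p = 2.79e-08) in XY. The XO value turned to 0.57 when the XO array at 84 h was left out. The 3 chain genes of 1 trimer therefore ran apart in each line, with the beta chain gene higher and the alpha and gamma chain genes lower at 84 h than at 0 h.

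**Figure D1:**
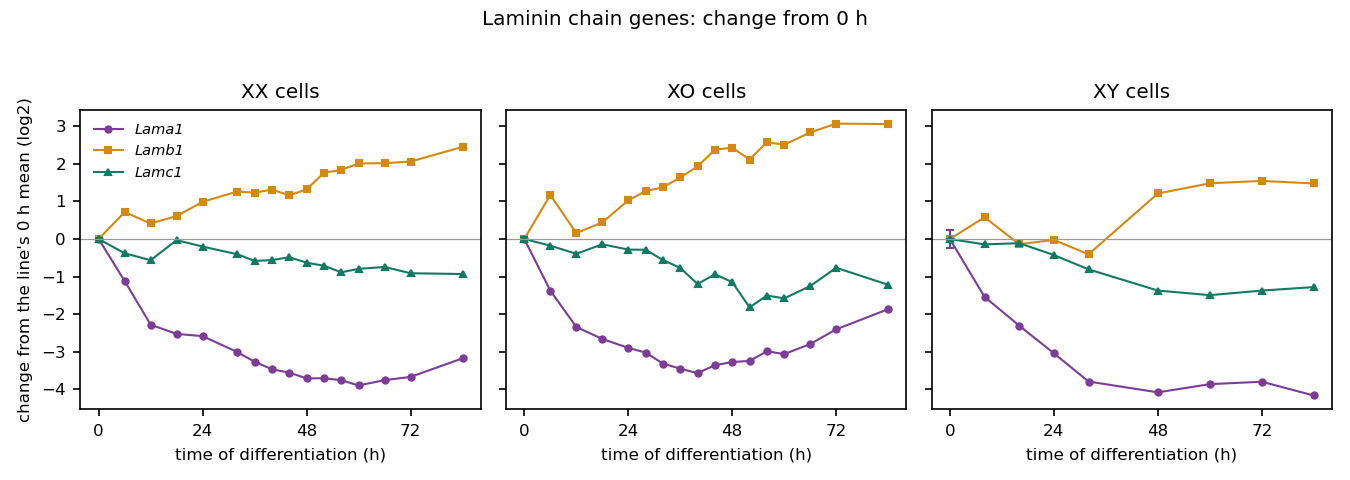
Change of the 3 laminin chain genes from the 0 h mean of each line (log2, vertical axis) over the hours of differentiation, in XX, XO and XY cells. Points are single arrays or the mean of 2 at 36 h in XX and XO, and bars at 0 h are SD of 2 arrays. At 84 h Lama1 was at -3.18, -1.87 and -4.17 and Lamb1 at 2.45, 3.06 and 1.48 in XX, XO and XY cells.

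Arrays at 36 h with replicates gave the same split without a fitted curve. Lama1 was at 6.34 and 6.42 in XX cells at 36 h, against 9.66 and 9.64 at 0 h, a 9.66-fold lower level (log2 change -3.27, SE 0.15, limma adjusted p = 8.69e-06). In XO cells it was at 5.74 and 5.85, against 9.25 and 9.25, a lower level again (log2 change -3.45, SE 0.15, adjusted p = 2.81e-06). Lamb1 was at 8.14 and 8.29 in XX cells at 36 h, against 6.93 and 7.02 at 0 h (1.23, SE 0.16, adjusted p = 0.00115), and at 8.14 and 8.49 in XO cells, against 6.73 and 6.62 (1.64, SE 0.16, adjusted p = 1.80e-04). For both genes the 36 h and 0 h arrays did not overlap. At 36 h against 0 h, 6 of the 10 genes passed in XX cells (13.4% of all genes) and 6 in XO cells (18.9%). Lama1, Lamb1, Lamc1, Fn1 and Sparc passed in both, Itga5 also in XX and Itgav also in XO.

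Some of these 36 h calls rest on single arrays. In XX cells Lamc1 (-0.58) did not pass when any 1 of the 4 XX arrays was left out (limma adjusted p 0.0545 to 0.0956). Itga5 did not pass without XX A at 0 h or without either XX array at 36 h (0.0683 to 0.0838). In XO cells, Sparc did not pass without XO A at 0 h, XO B at 0 h or XO A at 36 h (0.0616 to 0.103), Itgav without XO A or B at 0 h or XO B at 36 h (0.118 to 0.185), and Fn1 without XO B at 0 h (0.0649). The count in XO cells was 3 at its lowest. The test of the difference between the 36 h changes in XX and XO passed for 0 of the 10 genes (limma; 1.65% of all genes), with an unadjusted p under 0.05 for 2, Itga5 and Itgav.

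Fn1 fell in each line, to different ends. In XX cells it stood at 11.78 and 12.02 at 0 h, 11.31 at 24 h, 11.15 at 48 h and 11.27 at 84 h, with a lowest value of 10.96 at 36 h. XO cells stood at 12.37 and 12.56 at 0 h, 11.85 at 24 h, 11.12 at 48 h, 10.14 at 60 h and 10.26 at 84 h. XY cells stood at 12.61 and 12.43 at 0 h, 11.71 at 24 h, 10.98 at 48 h, 10.78 at 60 h and 10.46 at 84 h. Arrays of XX cells from 44 h on stayed between 11.12 and 11.33, while XO and XY arrays from 52 h on lay at 10.78 or below. The fitted change from 0 to 84 h was -0.59 (SE 0.14, limma adjusted p = 6.04e-07) in XX, -2.10 (SE 0.14, adjusted p = 3.45e-20) in XO and -2.09 (SE 0.15, adjusted p = 6.15e-16) in XY.

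The courses of Fn1 in XX and XO differed (limma F test, adjusted p = 1.05e-12), by 1.51 (SE 0.20) in the fitted change. Without the 5 narrow arrays, 3 of which are late XO arrays, that difference was 1.57 (F test of the courses, limma adjusted p = 3.37e-10). Without the XO array at 84 h it was 0.94 (F test, adjusted p = 1.23e-12). XX cells were below XO cells at each of the 9 shared times up to 44 h and above them at each of the 7 from 48 h on. The XX minus XO difference was -0.66 at 6 h, -0.65 at 36 h, 0.03 at 48 h, 1.14 at 60 h and 1.01 at 84 h. The fitted average over the whole course, 0.10 (SE 0.04, limma adjusted p = 0.0846), did not pass. Lama1 crossed the other way, with XX above XO at the 9 times up to 44 h and below it at the 7 later ones. Its XX minus XO difference was 0.40 at 0 h, 0.72 at 24 h, -0.03 at 48 h and -0.91 at 84 h.

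Sparc, which binds collagen and modulates how cells attach to matrix, first stood higher and then fell. In XX cells it was at 12.05 and 12.30 at 0 h, 12.68 at 6 h, 11.63 at 24 h, 10.75 at 48 h and 11.03 at 84 h. XO arrays read 11.96 and 11.84 at 0 h, 12.24 at 6 h, 11.77 at 24 h, 10.96 at 48 h and 11.37 at 84 h. XY arrays read 11.94 and 12.07 at 0 h, 12.70 at 8 h, 11.63 at 24 h, 10.28 at 48 h and 11.40 at 84 h. Its highest array in each line was the one at 6 or 8 h. The fitted change from 0 to 84 h amounted to -1.35 for XX, -0.56 for XO and -0.76 for XY (SE 0.19, 0.19 and 0.20). The course passed in each line (limma F test, adjusted p at most 1.88e-10). Without the XY array at 84 h the XY value was -1.35. The test of unequal XX and XO courses did not pass (adjusted p = 0.134), and those of XO and XY differed with adjusted p = 0.0269. That call was lost without the XY array at 8 h (0.103), without the one at 48 h (0.0969), without the 5 narrow arrays (0.0550), with centred arrays (0.0675) and with 3 degrees of freedom (0.215).

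Neither collagen IV gene had a course past the threshold. Col4a1 lay between 8.38 and 9.24 in XX (median 8.80), between 8.33 and 9.31 in XO (median 8.81) and between 8.34 and 9.24 in XY cells (median 8.74). Col4a2 lay between 5.95 and 6.60 in XX (median 6.20), between 5.89 and 6.58 in XO (median 6.27) and between 5.92 and 6.70 in XY cells (median 6.44), below the array median in all 47 arrays. The fitted changes of Col4a1 were 0.26, 0.18 and 0.13 in XX, XO and XY (SE 0.24 each), and those of Col4a2 -0.46, 0.30 and 0.29 (SE 0.22, 0.22 and 0.23). No course of either gene passed (limma F test, adjusted p 0.112 to 0.508). A p above the threshold does not show that the levels stayed the same, and a dim row can understate a change. The pair is known for a head-to-head arrangement, and in the annotation Col4a1 runs from 11198423 to 11312889 and Col4a2 from 11312805 to 11449287 on chromosome 8, so their spans overlap at the start sites.

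**Figure D2:**
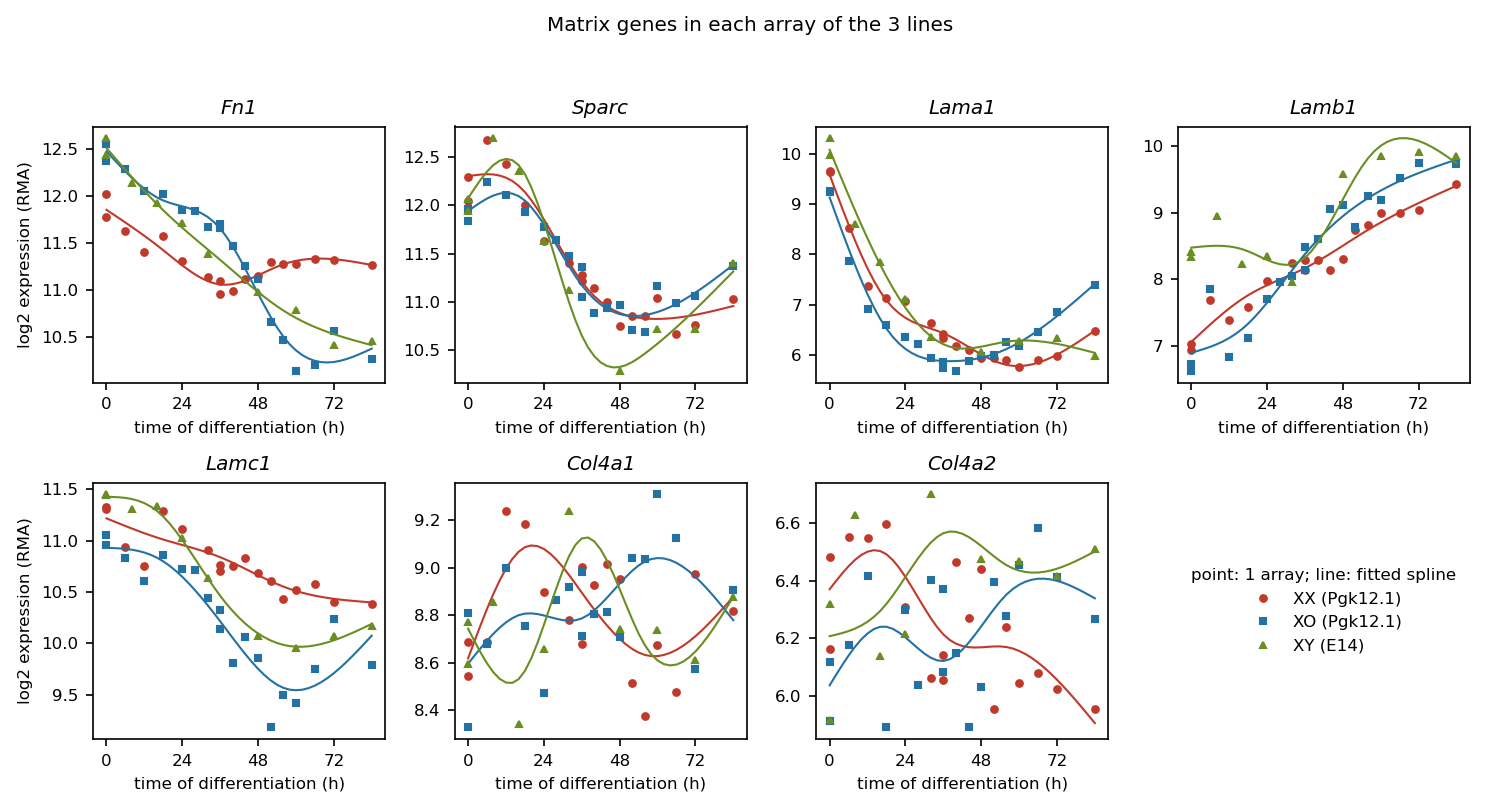
log2 expression of the 7 matrix genes in each array (points) and fitted splines (lines) against hours of differentiation, for XX, XO and XY cells; vertical scales differ between panels. Fn1 stays between 11.12 and 11.33 in XX cells from 44 h on while XO and XY lie at 10.78 or below from 52 h on, and both collagen IV panels scatter over less than 1 unit.

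The integrin subunits differed from each other too. Itgb1 encodes the beta subunit that most matrix-binding integrins share, and it was the gene of the 10 that most clearly separated XX from XO cells. All 18 XX arrays (10.31 to 10.86, median 10.63) lay above all 19 XO arrays (9.20 to 10.08, median 9.52), as they did for 0.809% of all genes, while 0 of the 10 genes had all XX arrays below all XO arrays (0.176% of all genes). At 0 h Itgb1 was at 10.46 and 10.47 in XX cells, 9.34 and 9.27 in XO cells, and 9.41 and 9.20 in XY cells. It was 2.24-fold higher in XX than in XO (log2 1.16, SE 0.13, limma adjusted p = 0.00146) and 2.23-fold higher in XX than in XY (1.16, SE 0.13, adjusted p = 0.00120). At 36 h it was at 10.76 and 10.69 in XX cells, against 9.51 and 9.52 in XO cells (1.21, SE 0.13, adjusted p = 0.00110). The average XX minus XO difference over the course was 1.01 (SE 0.07, adjusted p = 4.72e-15), with XX higher at 16 of 16 shared times, between 0.49 at 72 h and 1.48 at 52 h.

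In XX cells the course of Itgb1 did not pass (limma adjusted p = 0.928), with a fitted change of 0.10 (SE 0.21). In XY cells the course passed (limma F test, adjusted p = 1.28e-05), with a fitted change of 1.36 (SE 0.22). From 9.41 and 9.20 at 0 h, Itgb1 stood there at 10.21 at 8 h, 9.94 at 24 h, 9.42 at 32 h (a narrow array) and 10.18 at 48 h. At 72 and 84 h it stood at 10.41 and 10.87, beside 10.02 and 10.08 in XO and 10.52 and 10.72 in XX cells. Without the XY array at 84 h the fitted XY change was 0.63 (F test of the course, adjusted p = 0.00109). The XO course passed (F test, adjusted p = 0.0194), with a fitted change of 0.81 (SE 0.21). It did not pass without the XO array at 72 h (0.0722) or at 84 h (0.108), without the 84 h arrays of all lines (0.0965), without the 5 arrays lettered A (0.0515) or with centred arrays (0.114).

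Itga5 encodes the alpha subunit that pairs with the Itgb1 product to bind fibronectin, and it stood higher at the first array after 0 h in each line. In XX cells it stood at 8.11 and 8.57 at 0 h, 9.48 at 6 h, 9.61 at 24 h, 9.16 at 44 h and 8.64 at 84 h. XO cells stood at 8.10 and 8.37 at 0 h, 9.02 at 6 h, 9.21 at 18 h, 9.07 at 24 h, 8.50 at 48 h and 8.43 at 84 h. XY cells stood at 9.14 and 8.64 at 0 h, 9.56 at 8 h, 8.81 at 24 h, 8.46 at 48 h and 9.19 at 84 h. The arrays at 6 or 8 h lay above both 0 h arrays in each line, and in XX cells every later array stayed above both as well, which held in XO cells up to 36 h. The course passed in all 3 lines (limma adjusted p = 3.90e-05 in XX, 6.24e-05 in XO and 0.00175 in XY). The fitted 84 h minus 0 h values, 0.20, 0.16 and 0.09 (SE 0.24, 0.24 and 0.25), are within their errors and change sign in some alternatives, so no net direction is given.

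The fitted change over the first 24 h passed for Itga5 in XX (1.16, SE 0.20, limma adjusted p = 3.47e-05) and in XO (0.75, SE 0.19, adjusted p = 0.00376; 0.109 without XO A at 0 h). In XY cells it was -0.05 (SE 0.21, adjusted p = 0.919), where the rise at 8 h was over by 24 h. At 36 h Itga5 was at 9.39 and 9.29 in XX cells, against 8.49 and 8.54 in XO cells, and at 0 h at 8.11 and 8.57, against 8.10 and 8.37. The groups overlapped at 0 h and not at 36 h. XX was higher than XO at 16 of 16 shared times, and the average difference was 0.55 (SE 0.08, adjusted p = 1.34e-07). Whether the courses themselves differ was not settled (limma F test, adjusted p = 0.162).

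Itgav encodes an alpha subunit that binds vitronectin and fibronectin with several beta partners. In XX cells it lay between 8.66 and 9.50, highest at 6 h and lowest at 32 h, and its course did not pass (limma adjusted p = 0.733), with a fitted change of -0.27 (SE 0.23). In XO cells it was at 9.24 and 9.17 at 0 h, 9.16 at 24 h, 8.35 at 40 h, 7.97 at 48 h and 8.13 at 84 h. In XY cells it was at 9.10 and 8.76 at 0 h, 9.08 at 24 h, 8.20 at 48 h and 8.37 at 84 h. In both lines the drop lay after the first day. The fitted changes were -0.80 (SE 0.23) in XO and -0.57 (SE 0.24) in XY. Both courses passed (limma F test, adjusted p = 4.90e-07 in XO and 0.00371 in XY), and the XX and XO courses differed (F test, adjusted p = 0.00704). The fitted XO change turned to 0.16 when the XO array at 84 h was left out.

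**Figure D3:**
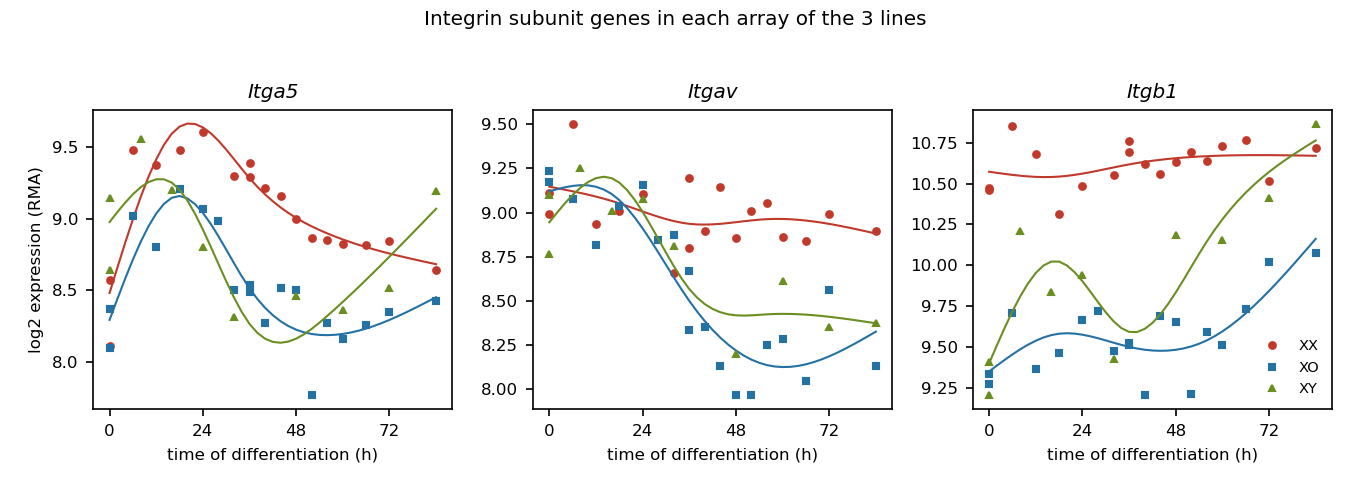
log2 expression of Itga5, Itgav and Itgb1 in each array (points) with fitted splines (lines) against hours of differentiation, for XX, XO and XY cells; vertical scales differ. Itgb1 lies at 10.31 or above in all XX arrays and at 10.08 or below in all XO arrays, and Itga5 is highest between 6 and 24 h.

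For most of the 10 genes the earliest arrays after 0 h lay beyond both 0 h arrays, in part by small margins. At 6 h in XX and XO and 8 h in XY, 5 of the 10 genes (Lamb1, Col4a2, Sparc, Itga5 and Itgb1) lay above both 0 h arrays in all 3 lines, against 11.8% of all genes, and 3 (Fn1, Lama1 and Lamc1) lay below both in all 3, against 9.60%. Col4a2 was at 6.55 in XX cells at 6 h, against 6.16 and 6.48 at 0 h, at 6.18 in XO cells at 6 h, against 5.91 and 6.12, and at 6.63 in XY cells at 8 h, against 6.32 and 5.92. In XO cells at 6 h Fn1 was at 12.29, against 12.37 and 12.56, and Lamc1 at 10.83, against 10.96 and 11.05. Over genes, A minus B had an SD of 0.32 to 0.39. Margins as small as these, and those of Col4a2 in XX and XO cells, show no move by themselves. There is 1 array per line at this time, so no test was made. At 84 h, likewise with 1 array per line, 4 genes (Lamb1, Col4a1, Itga5 and Itgb1) lay above both 0 h arrays in all 3 lines, against 18.1% of all genes. Below both lay 5 (Fn1, Lama1, Lamc1, Sparc and Itgav), against 11.6%. Itga5 stood at 8.64, 8.43 and 9.19 in XX, XO and XY cells, little above its higher 0 h arrays (8.57, 8.37 and 9.14). Col4a1 stood at 8.82, 8.91 and 8.88, against 8.69, 8.81 and 8.77. Against the same SD of A minus B, these margins show no rise. By the fitted change over the first 24 h, 4 of 10 genes passed in XX (Fn1, Lama1, Lamb1 and Itga5; 15.2% of all genes), the same 4 in XO (19.5%) and 2 in XY (Fn1 and Lama1; 14.9%). Without the 5 narrow arrays, Sparc in XX (-0.45, limma adjusted p = 0.0481, against 0.0520 with them) and Itgb1 in XY (0.66, adjusted p = 0.0169, against 0.0695 with them) passed as well. The Lamb1 calls, 0.85 in XX and 0.75 in XO, were lost without either 0 h array of the line (limma adjusted p 0.0945 to 0.108 in XX and 0.180 to 0.304 in XO), and without all 5 arrays lettered A (0.127 in XX and 0.197 in XO).

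For the fibronectin receptor pair, Itga5 and Itgb1, which were both above 0 h at this first array in the 3 lines, the 250 bases before the annotated start are printed from RefSeq's GRCm38.p6 sequence. They are at chr15:103366792-103367041 (minus strand) for Itga5 and chr8:128685404-128685653 (plus strand) for Itgb1, 5′ to 3′, and capitals mark GC boxes.
Itga5: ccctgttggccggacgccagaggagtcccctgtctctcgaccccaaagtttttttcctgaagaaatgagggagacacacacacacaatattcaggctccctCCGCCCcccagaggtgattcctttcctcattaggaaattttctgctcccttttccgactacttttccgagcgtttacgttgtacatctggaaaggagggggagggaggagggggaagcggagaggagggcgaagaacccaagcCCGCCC
Itgb1: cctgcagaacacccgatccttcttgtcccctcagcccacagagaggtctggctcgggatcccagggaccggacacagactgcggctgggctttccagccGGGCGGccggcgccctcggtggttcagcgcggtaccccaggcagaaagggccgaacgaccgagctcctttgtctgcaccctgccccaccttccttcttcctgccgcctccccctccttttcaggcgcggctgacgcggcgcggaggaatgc
The search covered, on both strands, the GC box (GGGCGG), the TATA box (TATAAA), the CCAAT box (CCAAT) and the AP-1 site (TGANTCA), which do not overlap each other here. Itga5 held 2 GC boxes and Itgb1 held 1, as 32.7% of all 32851 such windows hold at least 1. Neither window held the other 3 motifs, which 12.4%, 33.8% and 6.75% of windows hold. Of the 7 genes with a window (also Itgav, Col4a1, Col4a2, Lamb1 and Sparc), 4 held a GC box, 3 a CCAAT box and none a TATA box or AP-1 site. These matches describe letters and show no binding.

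Between XX and XO cells, Itgb1, Itga5 and Lamc1 were higher in XX at all 16 shared times, and Fn1 and Lama1 crossed as given above. At 0 h, 1 of the 10 genes passed (Itgb1; 9.15% of all genes), and Fn1, at 11.78 and 12.02 in XX cells against 12.37 and 12.56 in XO cells, did not (-0.56, SE 0.15, limma adjusted p = 0.0532). At 36 h 5 of 10 passed (8.97% of all genes). Itgb1, Itga5 (0.83), Lama1 (0.59) and Lamc1 (0.50) were higher in XX, and Fn1 (-0.65) was lower. Of these calls, that of Itgb1 was kept whichever of the 10 arrays was left out. The call of Fn1 was lost without any 1 of the 4 arrays at 36 h (limma adjusted p 0.0920 to 0.159), that of Itga5 without any XX array at 36 h or any XO array (0.0631 to 0.183), that of Lama1 without any XX or XO array (0.0538 to 0.191) and that of Lamc1 without any of the 10 arrays (0.0592 to 0.239). With centred arrays and with the replicate block, 2 of 10 passed, Itgb1 and Fn1.

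Averaged over the course, 4 of 10 genes passed between XX and XO, all higher in XX: Itgb1, Lamc1 (0.58, SE 0.07, limma adjusted p = 9.95e-09), Itga5 and Itgav (0.44, SE 0.07, adjusted p = 4.05e-06), against 35.3% of all genes called and 19.5% called as higher. Lamc1 was higher in XX at 16 of 16 shared times, by 0.11 at 6 h to 1.42 at 52 h. At 52 h the XX minus XO difference was also the largest of the course for Itga5, Itgav and Itgb1. The XO array at 52 h is among the narrow ones, and without all 5 of these the averages were 0.94 for Itgb1, 0.45 for Lamc1, 0.48 for Itga5 and 0.42 for Itgav, all past the threshold. Unequal courses were called for 5 of 10 genes (27.1% of all genes), Fn1, Lama1, Itgav, Lamc1 (adjusted p = 0.0174) and Lamb1 (0.0418). The Lamb1 call was lost when any 1 of 19 of the 47 arrays was left out (adjusted p 0.0502 to 0.0975) or without the arrays lettered A (0.0730), and without the 5 narrow arrays neither Lamc1 (0.0769) nor Lamb1 (0.0660) passed.

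**Figure D4:**
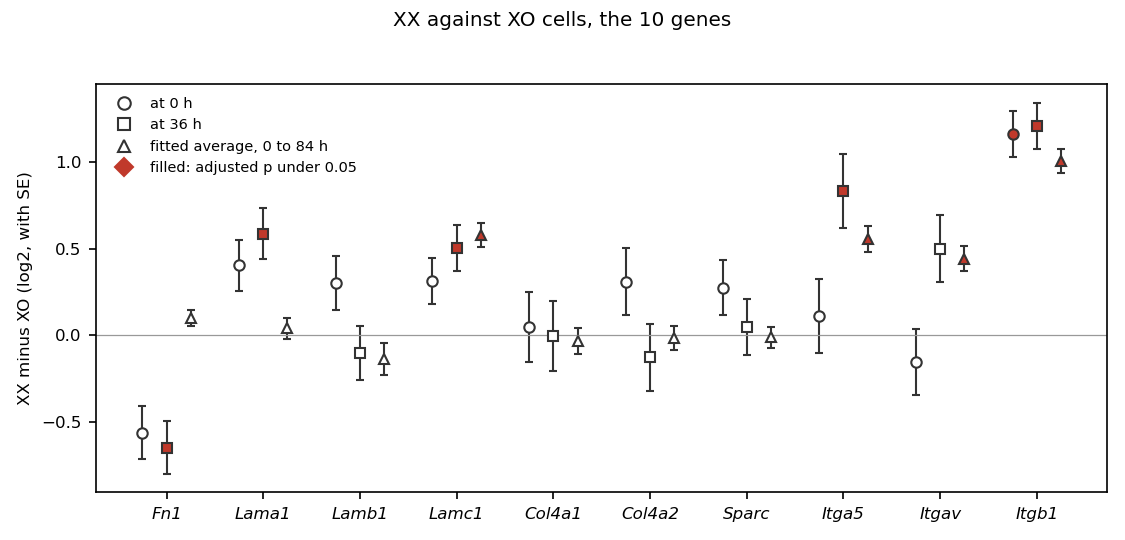
XX minus XO for each gene (log2, with SE from limma) at 0 h, at 36 h (2 arrays per line each) and as the fitted average over 0 to 84 h; filled symbols passed at an adjusted p under 0.05. Itgb1 stands near 1 in all 3 comparisons, while Fn1 is below 0 at 0 and 36 h and near 0 on average.

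**Figure D5:**
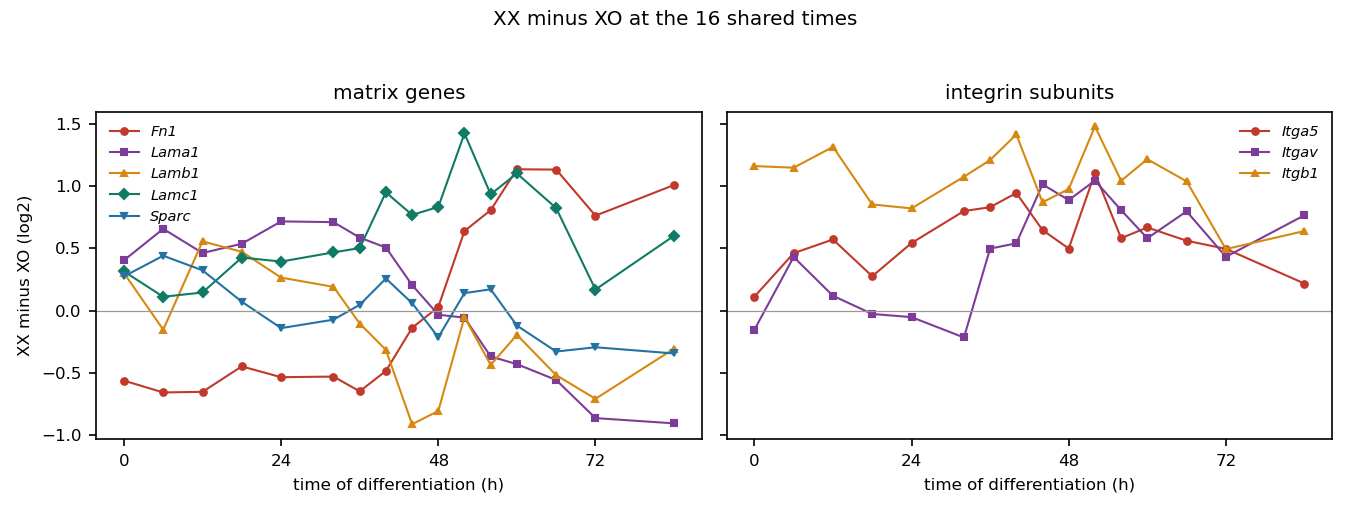
XX minus XO (log2) at the 16 shared times for 5 matrix genes (left) and 3 integrin subunits (right); each point is the difference of 2 arrays, or of 2 means at 0 and 36 h. Fn1 passes from below to above 0 and Lama1 from above to below 0 between 44 and 48 h, and Itgb1 stays between 0.49 and 1.48.

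E14 cells stood apart from both Pgk12.1 lines in Lamb1. At 0 h Lamb1 was at 6.93 and 7.02 in XX and 6.73 and 6.62 in XO cells, against 8.41 and 8.33 in XY cells, a 2.63-fold lower level in XX (log2 -1.40, SE 0.16, limma adjusted p = 0.00109) and a 3.24-fold lower level in XO (-1.70, SE 0.16, adjusted p = 0.00102). Lama1 was lower in XO than in XY by 0.90 (SE 0.15, adjusted p = 0.00892). That call was lost without XO A, XO B or XY A (limma adjusted p 0.0538 to 0.0648). Fn1 was lower in XX than in XY (-0.62, SE 0.15, adjusted p = 0.0304), a call lost without XX A, XY A or XY B (0.0716 to 0.155). In all, 3 of 10 genes passed between XX and XY (12.4% of all genes) and 2 of 10 between XO and XY (9.70%), comparisons that share the XY arrays.

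Over the course 4 of 10 genes were lower in XO than in XY on average, Lamb1 (-0.60, SE 0.11), Itgb1 (-0.42, SE 0.08), Lamc1 (-0.36, SE 0.08) and Lama1 (-0.26, SE 0.07), with limma adjusted p at most 0.00311, against 52.9% of all genes called and 20.4% called as lower. With centred arrays 8 of 10 were lower, adding Itga5, Fn1, Itgav and Col4a2, while the calls over all genes were 4903 higher and 7008 lower, in place of 7384 and 4642. The Lamc1 average was -0.21 without the XO array at 84 h, and that of Lama1 was -0.46 without the 84 h arrays. Unequal courses were called for 4 of 10 (23.5% of all genes): Lama1, Lamb1 (adjusted p = 0.00240), Sparc and Fn1 (0.0352). By the fitted change, Lama1 fell by 2.32 less (SE 0.27; 1.39 without the 84 h arrays) and Lamb1 rose by 1.63 more (SE 0.41) in XO than in XY cells. For Fn1 the fitted changes were -2.10 in XO and -2.09 in XY, its call was lost without the XO array at 60 h (0.0656) or 66 h (0.0559), the XY array at 32 h (0.220) or 60 h (0.169), or the 5 narrow arrays (0.526) and under 5 other alternatives (0.0513 to 0.133), and it is not described further.

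Over the 47 cell arrays, the 2 other rows most like Fn1 were ENSMUSG00000048897 (Pearson r = 0.945) and ENSMUSG00000005397 (r = 0.925). They are given without names, as a description only: the arrays share 3 courses and are not independent.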

How the data were processed

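RNA of 47 cell arrays and 1 commercial mouse reference RNA was hybridised to Affymetrix mouse exon arrays. The authors deposited log2 expression values per Ensembl gene; RMA and affy are the tools named in the submitters' processing notes, without versions, and the probe annotation was not given in the sources used here. RMA corrects background, equalises arrays and summarises probes, which can compress changes of dim genes. The number of arrays limits the precision. The reference RNA, grouped by its source name, entered no test.

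The 10 genes, the lists and the tests were chosen with earlier results of these data known; the rule names all 10 genes. Lists of other matrix, integrin, adhesion and cell type marker genes, written as symbols, could not be matched to identifiers and are not analysed here.

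Fits used R 4.3.3, limma 3.58.1 (lmFit and eBayes, two-sided) and splines 4.3.3. The 10 replicated arrays gave 5 residual degrees of freedom (prior 3.87), and the courses, with knots at 17, 36 and 56 h, gave 32 (prior 4.12). A course's direction is that of the fitted 84 h minus 0 h value, and the curve smooths steps such as a rise at 6 h alone. The p of a course is from an F test of all its spline terms, and the 84 h minus 0 h value was not tested by itself. On simulated data over 22745 genes, 30% of changes of 1 log2 unit and 86% of changes of 2 were recovered for XX against XO at 0 h. For the XX course it was 64% and 96%, and for unequal XX and XO courses 32% and 79%, with 12, 10 and 5 false calls. There, a small share of genes was changed, in XX alone, with independent normal noise and straight-line courses. In the data 9.15%, 34.1% and 27.1% of genes passed these tests and courses bend, so these rates need not hold for them. The A minus B differences of the conditions correlated over genes by -0.134 to 0.189, so the letters were not taken as pairs. Alternatives were centring, quantile normalization, leaving out dim rows (mean under the 25th percentile, 5.62), a robust prior with trend, a replicate block, splines with 3 or 5 degrees of freedom, and leaving out the 5 arrays lettered A, the 84 h arrays, each array in turn and, chosen after seeing the data, the 5 arrays of narrowest interquartile range. Promoter windows come from RefSeq, GRCm38.p6.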

Additional observations from a re-analysis of the deposited data

Results flagged for a closer look

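Courses that differed between lines by a test of the difference itself were those of 5 genes for XX against XO and 4 for XO against XY (limma F test over all 22745 genes). Between XX and XO the adjusted p was 1.05e-12 for Fn1, 4.51e-07 for Lama1, 0.00704 for Itgav, 0.0174 for Lamc1 and 0.0418 for Lamb1. Between XO and XY it was 2.11e-07 for Lama1, 0.00240 for Lamb1, 0.0269 for Sparc and 0.0352 for Fn1. Both comparisons use the same XO arrays. No group had 4 or more arrays, so no array was tested as an outlier of its group.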

How the results depend on the processing

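Of 1250 single-gene values under alternatives other than leaving out single arrays, 1191 kept their side of the threshold and, where called, their direction. Values called in neither fit count among these whatever their sign, as for Col4a1 in the XO course (-0.17 to 0.33). Of the rest, 25 no longer passed, 28 newly passed and 6 turned. The 6 were Itga5 for XX without the arrays lettered A (-0.074), for XO with centred arrays (-0.081) and quantile normalization (-0.19), and for XY without the 84 h arrays (-0.49), and, with 5 degrees of freedom, Itga5 (-0.068) and Fn1 (0.014) for unequal XO and XY courses. Counts of the 10 genes moved as follows, and the cause was not tested. XX against XO at 0 h gave 2 in place of 1 with centring, without dim rows and with the robust prior, each adding Fn1. XO against XY at 0 h gave 3 in place of 2 under the same 3 settings (Lamc1), and XX against XY 4 in place of 3 with centring, with quantile normalization and without dim rows (Lama1). XX against XO at 36 h gave 2 with centring, 3 with quantile normalization and 2 with the replicate block, in place of 5, and 1 to 4 when 1 array was left out. The replicate block changed no other call of these genes. Leaving out 1 array gave 1 to 2 genes for XO against XY at 0 h, 3 to 6 for XO at 36 h against 0 h, and 2 to 4 for the first 24 h in XO. Without the arrays lettered A the last was 2 in place of 4. Unequal XX and XO courses gave 3 in place of 5 without the narrow arrays, and unequal XO and XY courses 2 in place of 4 without them or with 3 degrees of freedom. XO against XY on average gave 8 in place of 4 with centring. Without the XO 84 h array alone, the XO curve is extrapolated there, and the fitted changes of Lamc1 (0.57) and Itgav (0.16) turned. Background counts over all genes moved by over 1.5 times for unequal XO and XY courses, with 2141 (3 degrees of freedom), 3394 (no 84 h arrays) and 2300 (no narrow arrays) in place of 5341, and, without the arrays lettered A, for the first 24 h, with 2904 in place of 4439 in XO and 1850 in place of 3378 in XY. Levels below the array medians, as for Col4a2 and most late Lama1 arrays, limit what can be seen.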

Other observations

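On the array of commercial mouse reference RNA, which belongs to no comparison, the 10 genes stood at 12.92 (Fn1), 5.21 (Lama1), 9.60 (Lamb1), 10.22 (Lamc1), 8.55 (Col4a1), 7.88 (Col4a2), 13.10 (Sparc), 10.28 (Itga5), 10.35 (Itgav) and 11.38 (Itgb1) log2 units. Lama1 was lower there than in any cell array, the lowest of which was 5.67. Fn1, Sparc, Itga5, Itgav, Itgb1 and Col4a2 were higher there than in any cell array.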
